A study of Mus musculus with 14 samples.

Results

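Retinal veins of 9 DBA/2J mice fell on both sides of a gap in Lcn2, the gene for lipocalin 2, and the libraries on the 2 sides of that gap are compared here. A DBA/2J library was put in the high-Lcn2 class when its Lcn2 value was 1000 or more and in the low-Lcn2 class when it was below 1000. This rule gave 6 high-Lcn2 and 3 low-Lcn2 libraries of 9 DBA/2J libraries, in a series of 14 libraries. Values are scaled counts, kallisto's estimated counts per gene divided by a size factor for each library. In the low-Lcn2 class Lcn2 stood at 526.3 in sample 1, 342.0 in sample 3 and 572.6 in sample 4. In the high-Lcn2 class it stood at 5232 in sample 2, 1750 in sample 5, 4456 in sample 6, 8382 in sample 7, 16300 in sample 8 and 6141 in sample 9. Sample 5 was the library just inside the limit and sample 4 the library just outside it. The 5 control libraries ranged from 173 to 399, below each DBA/2J library except that sample 3, at 342.0, lay within their range. The classes were therefore chosen by a measured value, and a difference between them in Lcn2, or in genes that follow it, describes these libraries and is not a test of a treatment. No gene was tested between the classes.

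Each library came from the 4 major veins of 1 mouse, dissected under fluorescence 5 minutes after each mouse had received the dye sodium fluorescein (0.33 mg/g, into the peritoneum). All mice were 9 months old. The DBA/2J strain develops pigment-dispersing iris disease, raised eye pressure and glaucoma with age, and the normotensive controls, DBA/2J-Gpnmb+/SjJ, carry a working copy of Gpnmb on the same strain background. The DBA/2J mice of both classes had the same genotype, age and handling in the labels, and the labels give no eye pressure for a mouse. Gpnmb read 65.4 to 516 in the DBA/2J libraries and 1409 to 3190 in the controls, which fits the labels. Estimated depth ran from 8931959 to 33786257 reads in the DBA/2J libraries.

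Lipocalin 2 is a secreted protein that binds bacterial iron carriers and is a classic acute-phase product. Its gene is switched on by interleukin 1, interleukin 6 and related cytokines through the transcription factors NF-kB, C/EBP and STAT3, in liver, in glia and in the endothelium of inflamed brain and retina. Activated venous endothelium also displays P-selectin and E-selectin, on which leukocytes roll before they adhere through ICAM-1 and VCAM-1 and leave the vessel.

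A gene was counted as higher when each of the 6 high-Lcn2 libraries lay above each of the 3 low-Lcn2 libraries and the class means differed by at least 1 on the log2(value + 1) scale, a 2-fold difference, and as lower in the mirrored case. Of 29959 genes compared, 735 (2.45%) counted as higher and 195 (0.651%) as lower. Among 18066 protein-coding genes the counts were 594 (3.29%) higher and 42 (0.232%) lower. Without the 2-fold limit, each high-Lcn2 library lay above each low-Lcn2 library in 4.08% of all genes and below in 2.12%, and among coding genes in 5.68% and 2.13%. The median difference over all genes was 0.04 (log2). These shares are the background for the counts of gene groups below. With 1 library left out in turn, the share of all genes counted as higher was 2.36% to 5.17%. Counts without a library have that background. A gene could pass the filter on low values, 1 or more in at least 3 libraries, through 1 class alone. With a minimum of 10 in 6 libraries, 569 genes (2.99% of those left) counted as higher and 55 (0.289%) as lower. The high class alone can also meet that minimum. The 735 genes counted as higher lay, by their median, 0.92 above the controls in the high-Lcn2 class and -0.65 from them in the low-Lcn2 class (log2). Over all genes the median of the low-Lcn2 class stood 0.01 from the controls. The genes were picked for being low in those 3 libraries and high in the other 6. That choice by itself lowers the second value and raises the first, so neither tells a difference from control veins.

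**Figure D1:**
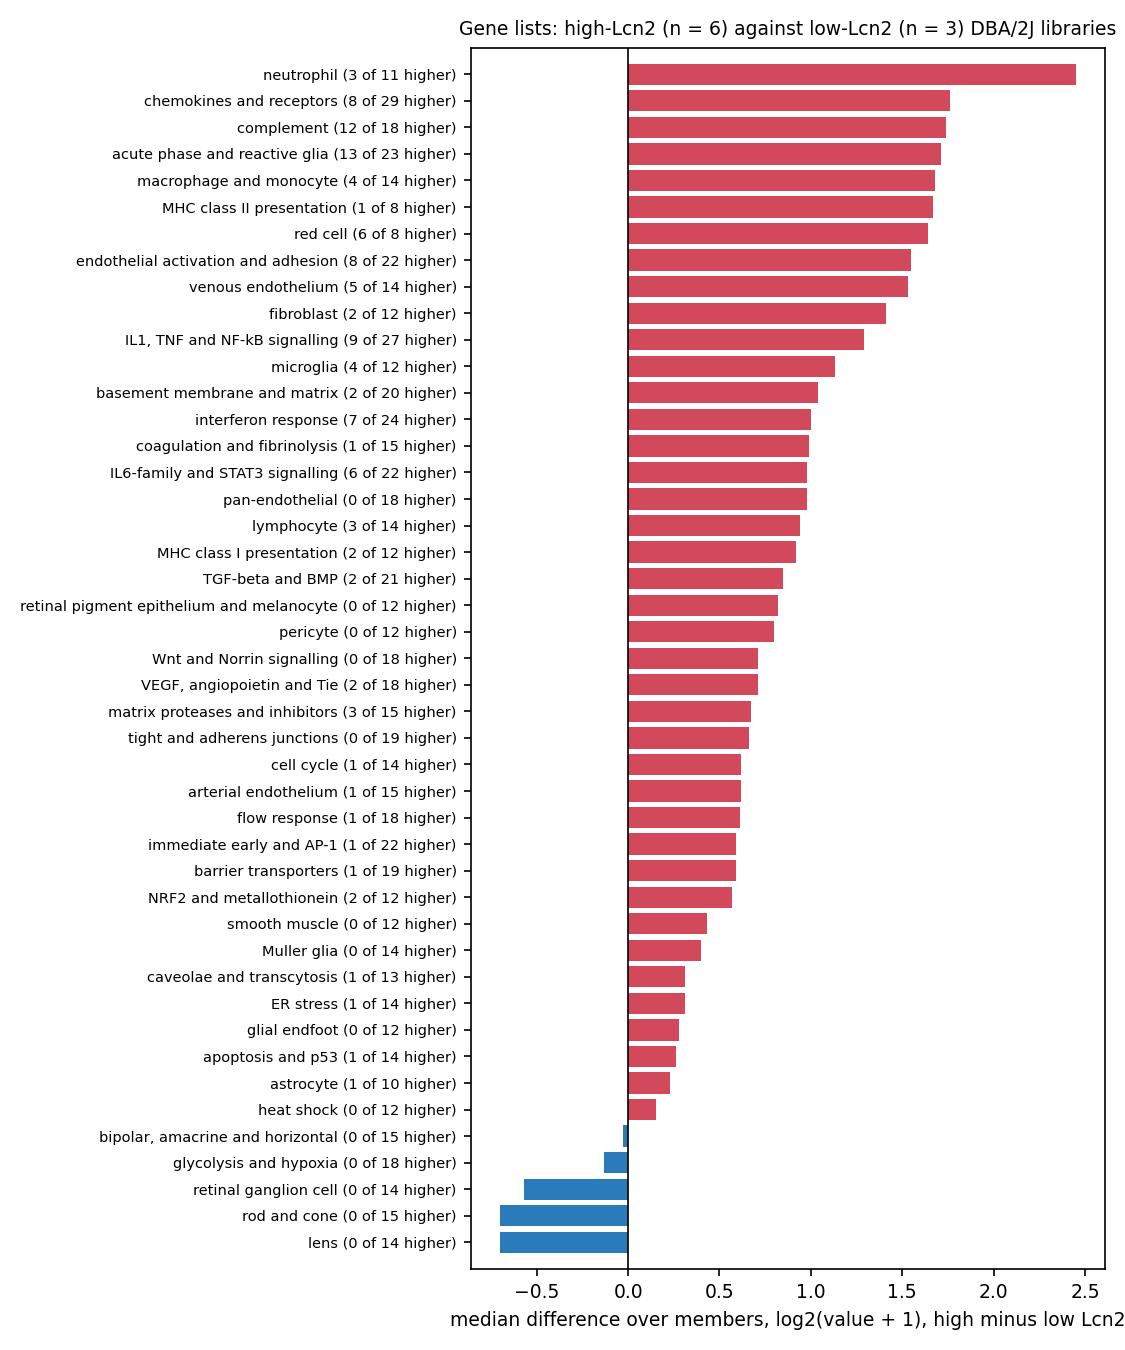
Median difference over the members of each gene list, high-Lcn2 minus low-Lcn2 DBA/2J libraries, on the log2(value + 1) scale (bars from 0), with the number of members counted as higher. Neutrophil, chemokine, complement and acute-phase lists stand at the top with medians of 2.45, 1.76, 1.74 and 1.71, and the rod and cone and lens lists at the bottom with -0.70. The neutrophil list includes genes near 0, such as Ly6g, and Mmp8, which passed the filter on low values through the high class alone.

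Acute-phase and reactive-glia genes formed the group with the most members higher. Of the 23 members compared besides Lcn2, 13 counted as higher, none as lower, and all 23 had a positive difference, with a median of 1.71 (log2). The count stayed between 13 and 17 when each library was left out in turn. Lrg1 encodes a secreted leucine-rich glycoprotein of the acute phase that acts on TGF-beta signalling in vessels. It read 886.9, 305.4 and 460.2 in the low-Lcn2 samples 1, 3 and 4, and 2423 to 16414 with a median of 8327 in the high-Lcn2 class. The classes did not overlap, and controls ranged from 132 to 567, so that sample 1 lay above all of them. The difference was 3.81 ± 0.64 (log2, SE, n = 6 and 3). Serpina3n, a protease inhibitor and marker of reactive astrocytes, read 1968, 1450 and 1335 against 5601 to 14660, with a median of 9408. Its highest value was in sample 5, the library with the lowest Lcn2 of the high class, and its difference was 2.5 ± 0.28. Timp1, an inhibitor of matrix metalloproteinases, read 24.8, 35.7 and 37.5 against 156 to 599, a difference of 3.15 ± 0.33. Its low-Lcn2 values lay within the control range of 19.6 to 65.1 and its high-Lcn2 values all above it.

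Steap4, a metalloreductase that inflammatory cytokines raise, read 206.1, 175.3 and 182.7 against 569 to 1973 (difference 2.37 ± 0.27). Hp, which encodes the hemoglobin-binding protein haptoglobin, read 11.7, 9.85 and 10.1 against 17.8 to 290, but a control also reached 56.9. Cp, which encodes the copper-carrying ferroxidase ceruloplasmin, differed by 1.33 ± 0.14, from 2243 to 2749 in the low class to 4979 to 7336 in the high class. Gfap, the intermediate filament of astrocytes and reactive Müller glia, read 8054, 4799 and 5619 against 8902 to 34067. The lowest high-Lcn2 value of Gfap stood close to the highest low-Lcn2 value, so the gap between the classes was narrow for this gene. Chil1, a chitinase-like protein secreted by reactive astrocytes and macrophages, was outside the lists but among the genes most like Lcn2, and read 1982, 1440 and 1548 against 4081 to 18303. Sample 2 was the second highest library for Chil1, at 12358.

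**Figure D2:**
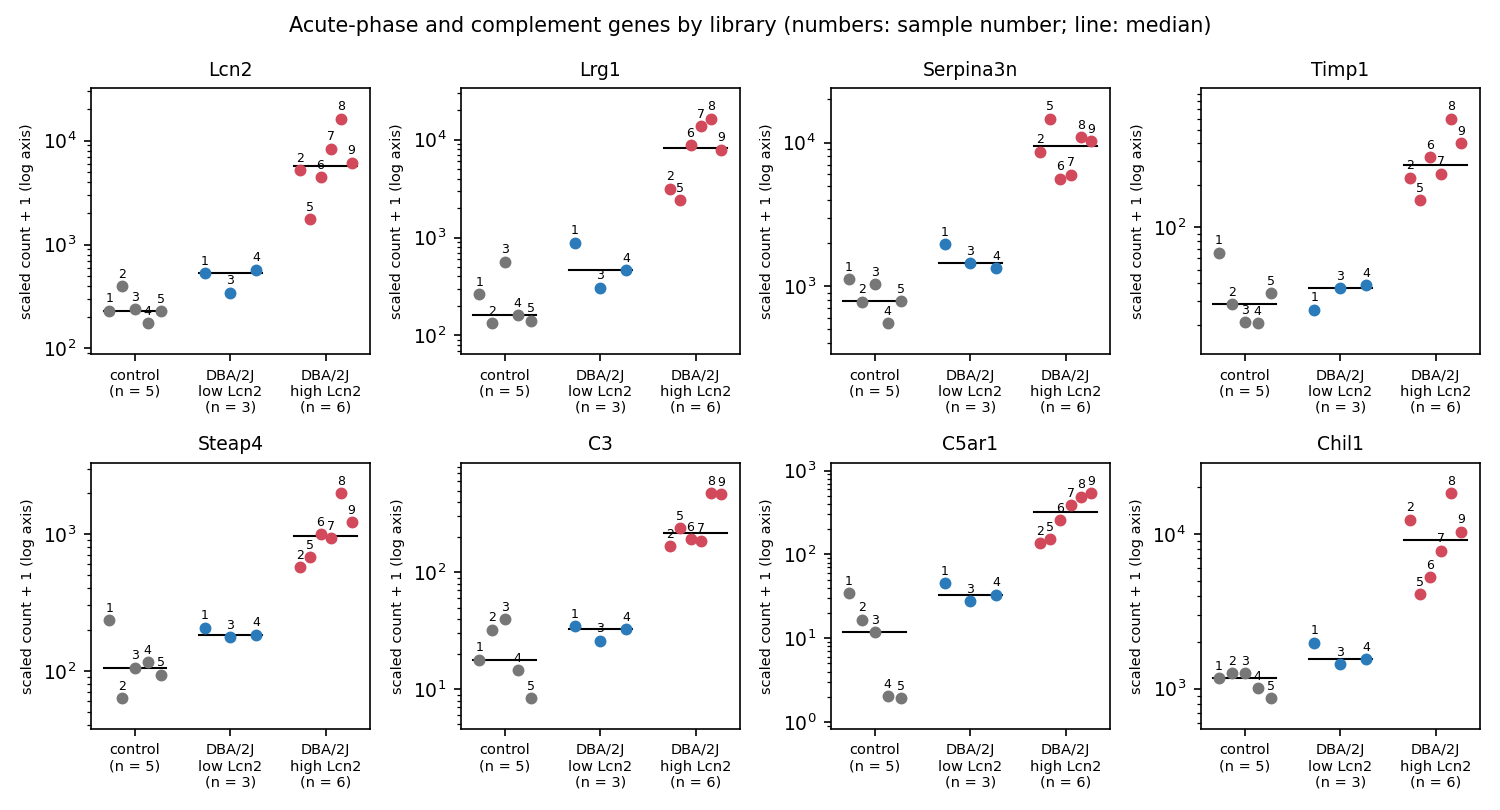
Scaled counts plus 1 (log axis) of 8 acute-phase and complement genes in each library, with the sample number beside the point and a line at the median of the controls, the low-Lcn2 and the high-Lcn2 DBA/2J libraries. For Lrg1, Serpina3n, Timp1, Steap4, C3, C5ar1 and Chil1 each high-Lcn2 point lies above each low-Lcn2 point.

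The promoters of the genes the results turn on are shown as 250 bases up to the base before the gene's start, in the RefSeq promoter table for GRCm38.p6, with matches to 4 short patterns in capitals. The patterns, searched on both strands, were GGG and TCC with any 4 bases between them for NF-kB, TTCNNNGAA for STAT, TGA and TCA with any base between them for AP-1 and TTGCNNAA for C/EBP. Positions count back from the start in that table, which for Lcn2, Lrg1, Steap4 and Cxcl1 lies inside the longer gene that GENCODE M21 gives, so the Lcn2 window lies wholly, and the other 3 partly, within that gene model. Lcn2 (ENSMUSG00000026822.14) lies on the minus strand of chromosome 2 at 32384633 to 32388252 in GENCODE M21, and its window, chr2:32387740-32387989, holds an NF-kB match that begins 102 bases upstream and a C/EBP match 216 bases upstream. Lrg1 (chr17:56121947-56122196, minus strand) holds an NF-kB match 34 bases upstream. Steap4 (chr5:7960222-7960471, plus strand) holds an NF-kB match at 226, a STAT match at 116 and a C/EBP match at 87 bases. Sele (chr1:164047984-164048233, plus strand) holds an NF-kB match at 145 and a STAT match at 140 bases, which overlap and appear as 1 run of capitals, and an AP-1 match at 73 bases. Selp (chr1:164115014-164115263, plus strand) holds an AP-1 match at 139 bases. Cxcl1 (chr5:90890995-90891244, plus strand) holds 3 NF-kB matches, at 89, 71 and 70 bases, of which the last 2 overlap, with 1 on each strand.
Lcn2: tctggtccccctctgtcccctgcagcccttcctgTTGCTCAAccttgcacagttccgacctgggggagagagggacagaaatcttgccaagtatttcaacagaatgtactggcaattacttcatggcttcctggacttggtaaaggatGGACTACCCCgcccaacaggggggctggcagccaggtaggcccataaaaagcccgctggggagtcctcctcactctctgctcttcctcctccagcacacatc
Lrg1: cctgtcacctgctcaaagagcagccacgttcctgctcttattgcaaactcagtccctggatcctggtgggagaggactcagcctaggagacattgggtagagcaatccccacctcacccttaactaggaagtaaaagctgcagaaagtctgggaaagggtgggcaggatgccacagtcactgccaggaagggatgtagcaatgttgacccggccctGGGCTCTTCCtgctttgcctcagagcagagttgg
Steap4: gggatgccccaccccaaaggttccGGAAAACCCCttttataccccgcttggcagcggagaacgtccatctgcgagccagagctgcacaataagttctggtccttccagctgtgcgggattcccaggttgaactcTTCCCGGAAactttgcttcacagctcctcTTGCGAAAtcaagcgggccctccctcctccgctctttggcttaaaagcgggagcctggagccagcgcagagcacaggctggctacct
Sele: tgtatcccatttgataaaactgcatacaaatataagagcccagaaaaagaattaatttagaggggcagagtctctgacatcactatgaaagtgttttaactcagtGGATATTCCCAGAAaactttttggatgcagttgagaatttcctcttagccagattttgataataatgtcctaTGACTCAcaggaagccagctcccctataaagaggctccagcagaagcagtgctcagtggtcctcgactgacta
Selp: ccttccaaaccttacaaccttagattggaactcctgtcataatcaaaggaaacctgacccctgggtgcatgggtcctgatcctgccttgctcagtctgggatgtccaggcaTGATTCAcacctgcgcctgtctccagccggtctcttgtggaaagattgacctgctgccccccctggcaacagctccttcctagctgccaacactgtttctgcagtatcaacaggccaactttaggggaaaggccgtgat
Cxcl1: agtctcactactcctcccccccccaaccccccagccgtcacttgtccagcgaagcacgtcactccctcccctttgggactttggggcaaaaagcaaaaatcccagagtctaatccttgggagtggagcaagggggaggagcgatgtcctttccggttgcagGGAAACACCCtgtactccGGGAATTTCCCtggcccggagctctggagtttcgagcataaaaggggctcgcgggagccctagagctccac
Promoters were looked up for Lcn2, the 16 largest differences upward and a fixed set of inflammatory and endothelial genes, not for each named gene. For Lcn2 and those counted as higher, 22 genes in all, the table gave 23 windows, since Cp had 2. The NF-kB pattern occurred in 10 of the 23 windows, the C/EBP pattern in 6, and the STAT and AP-1 patterns in 4 each. In the 14 windows of 13 genes looked up but not counted, the NF-kB pattern occurred in 4, the C/EBP pattern in 3, the AP-1 pattern in 2 and the STAT pattern in 1. Of all 32851 promoters in the table, 16.5% held the NF-kB pattern, 9.56% the C/EBP pattern, 7.02% the STAT pattern and 6.75% the AP-1 pattern. A match describes the letters in this window and does not show that a factor binds there.

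Signalling genes differed less. In the list for interleukin 6-family and STAT3 signalling 6 of 22 members counted as higher and none as lower, with a median of 0.98 (log2). Without sample 2, 10 members counted as higher, against 5.17% of all genes. Socs3, the feedback inhibitor that STAT3 induces, read 52.7, 67.9 and 54.7 against 124 to 452 (difference 1.70 ± 0.30). Cebpd, a transcription factor of the acute-phase response, read 439.6, 578.4 and 482.7 against 1127 to 3282 (1.85 ± 0.24), and its relative Cebpb differed by 1.53 ± 0.34. Osmr, the receptor for oncostatin M, read 478.0, 313.3 and 608.5 against 643 to 1509. Stat3 itself did not reach the 2-fold limit. It read 738.2, 682.0 and 839.2 against 1227 to 1343, a difference of 0.78 ± 0.09, so the classes were apart without overlap and the spread within the high class was small. The controls, at 351 to 450, lay below each DBA/2J library of either class. Over all 29959 genes, each low-Lcn2 library lay above each control in 2785, and each high-Lcn2 library in 1327. The ligands did not follow the classes as closely. Lif read 46.0, 18.6 and 55.2 in the low class, and its lowest value of the high class, 37 in sample 2, fell within that range. Il6 was low in 8 of the 9 DBA/2J libraries, at 0 to 20.1, and reached 265.1 in sample 8.

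In the interleukin 1, TNF and NF-kB list 9 of 27 members counted as higher and none as lower, with a median of 1.29. Without sample 2, 16 members counted as higher, against 5.17% of all genes. With library number, the pan-endothelial mean or the red cell mean as a covariate, 2 members counted, against 3.21%, 3.4% and 3.25% of all genes. The macrophage mean as a covariate left 0, against 4.74%, and log2 depth left 7, against 4.07%. Bcl3, an atypical NF-kB inhibitor-family protein that acts in the nucleus and belongs to the interleukin 6 list, read 72.0, 60.4 and 74.8 against 175 to 599. Across the 9 DBA/2J libraries it had the pattern closest to Lcn2. Relb and Nfkb2, both subunits of the non-canonical NF-kB pathway, differed by 1.36 ± 0.30 and 1.31 ± 0.23. The TNF receptors Tnfrsf1a and Tnfrsf1b differed by 1.64 ± 0.34 and 1.61 ± 0.36, although the gap between the classes for Tnfrsf1b was only from 345.7 to 347. Cd14, which presents bacterial lipopolysaccharide to toll-like receptors, read 207.9, 166.3 and 175.6 against 236 to 3711. Il1b and the receptor Il1r1 were not counted, since sample 2 read 24.5 for Il1b and 692 for Il1r1, each within or below the low-Lcn2 range.

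Selp and Sele, the selectin genes, had the greatest differences among the named genes. Selp read 16.4, 4.7 and 6.89 in the low-Lcn2 samples 1, 3 and 4. In the high class it read 70.0 in sample 2, 79.9 in sample 5, 146.6 in sample 6, 520.0 in sample 7, 2498 in sample 8 and 265.1 in sample 9. The classes did not overlap, and the spread within the high class was wider than the gap between the classes. The difference was 4.81 ± 0.92 (log2), and controls read 0 to 2.82. Sele read 79.1, 7.27 and 22.4 against 93.3 to 3553, with sample 8 again highest, a difference of 3.94 ± 1.23. Its classes were separated only narrowly, by sample 1 at 79.1 and sample 2 at 93.3. In the low class Selp rested on an estimated 4.00 to 8.92 reads and Sele on 9.00 to 43.0, so the sizes of these 2 differences are imprecise.

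In the endothelial activation and adhesion list 8 of 22 members besides Lcn2 counted as higher, with a median of 1.55, and all 22 differences were positive. The integrin ligands Icam1 and Vcam1 did not count. Icam1 read 901.5, 657.6 and 406.6 in the low class and 1605 to 3667 in samples 5 to 9, but 732.2 in sample 2. Vcam1 read 2397, 1468 and 2547 in the low class and 3803 to 10656 in samples 5 to 9, but 2208 in sample 2. For both genes 5 of the 6 high-Lcn2 libraries lay above the low class, and sample 2 lay inside it. Ackr1, the chemokine-carrying receptor of venules, overlapped through sample 5, at 333.0, against 259.2 to 370.6 in the low class. It reached 7689 in sample 8. Ptgs2, the inducible cyclooxygenase, overlapped through sample 5 as well, at 116.8. Without sample 2, 16 members of the adhesion list counted as higher in place of 8, where 1549 of all genes (5.17%) did so, and without sample 9 the count was 6.

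**Figure D3:**
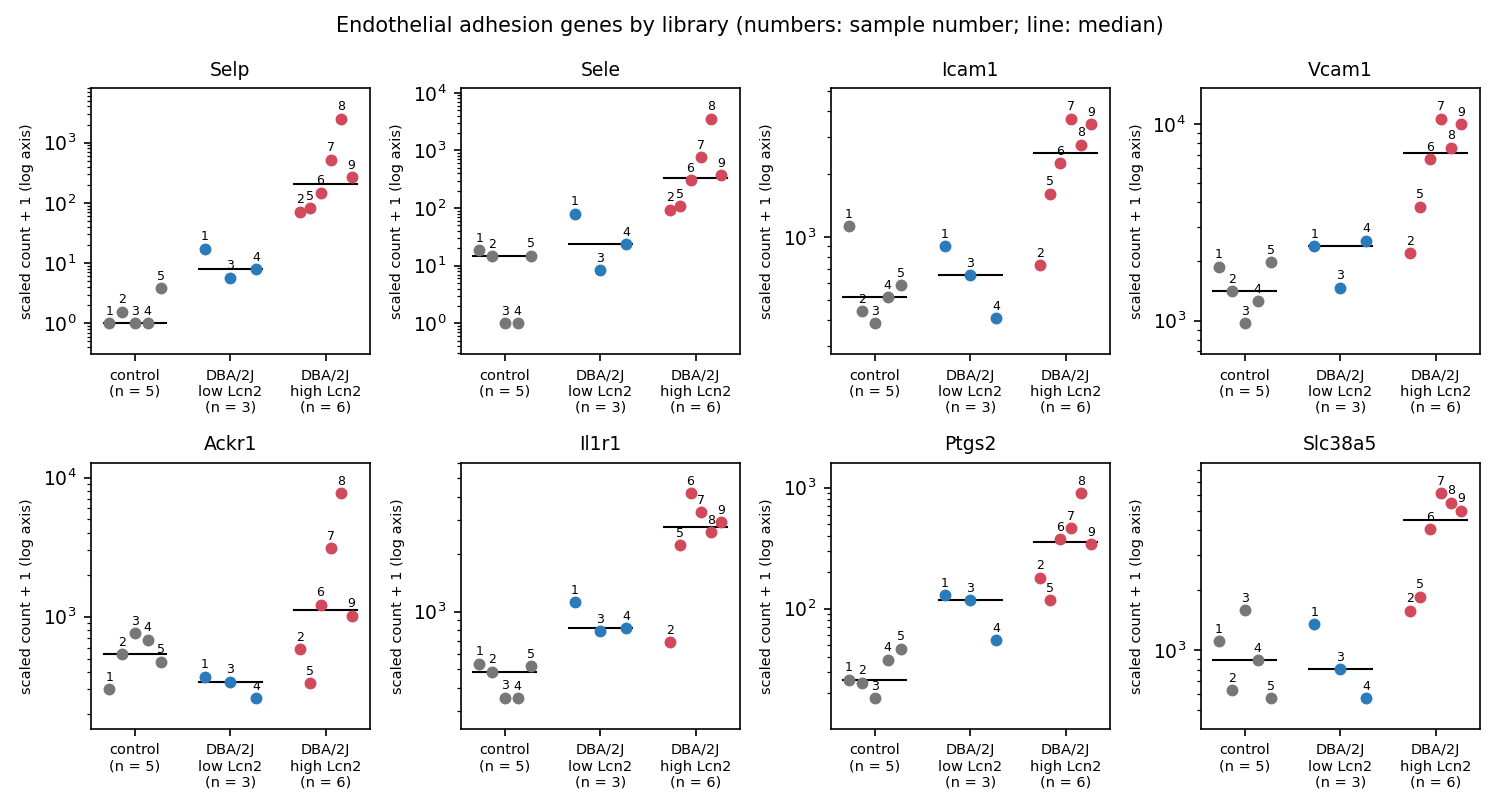
Scaled counts plus 1 (log axis) of 8 adhesion and venous endothelial genes in each library, with the sample number beside the point and a line at each group's median. Selp, Sele and Slc38a5 separate the low-Lcn2 from the high-Lcn2 libraries, whereas sample 2 lies within or below the low-Lcn2 values for Icam1, Vcam1 and Il1r1.

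Complement showed the highest share of members counted among lists of more than 10 members, 12 of 18, with a median of 1.74 (log2), and 12 to 14 with each library left out in turn. C3, the component on which all activation routes meet, read 33.8, 25.0 and 31.5 against 165 to 471 (difference 3.08 ± 0.30). The low-Lcn2 values of C3 lay within the control range of 7.41 to 38.6, and the high-Lcn2 values were all above it. C5ar1, the receptor for the C5a fragment on myeloid cells, read 44.2, 26.7 and 32 against 135 to 534. C4b, of the classical route, read 349.4, 233.1 and 401.8 against 836 to 2125. Cfb, the factor B of the alternative route, read 385.7, 339.9 and 438.3 against 937 to 2579, and controls reached 259. The C1q chains C1qa, C1qb and C1qc, made mainly by microglia and macrophages, differed by 1.68 ± 0.39, 1.81 ± 0.44 and 1.72 ± 0.30. The C1 inhibitor Serping1 differed by 1.96 ± 0.29, so both activators and an inhibitor of the pathway were higher in the high class. Itgam, the myeloid integrin that binds a C3 fragment, read 69.5, 85.0 and 204.6 against 316 to 726.

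Chemokines and their receptors gave 8 of 29 members higher, none lower, and a median of 1.76. The count was 13 without sample 1 and 13 without sample 5, against 4.77% and 2.96% of all genes. Cxcl1, which attracts neutrophils, read 14.7, 44.0 and 11.5 against 76.4 to 542 (2.80 ± 0.71). Ccl12, which attracts monocytes in the mouse, read 37.3, 42.5 and 31.9 against 71.4 to 291 (2.26 ± 0.31). Ccl2, another ligand of monocytes, read 68.7, 62.3 and 17.7 against 76.9 to 330, with only a narrow gap. Ccr2, the monocyte receptor for these ligands, read 65.8, 20.8 and 43.3 against 136 to 509 (2.67 ± 0.56), and controls read 1.03 to 52.4.

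Some markers of leukocytes were higher in the high-Lcn2 libraries, and the macrophage and microglia shares were greatest in samples 8 and 9. In bulk samples, fewer cells of a type and less RNA per cell cannot be told apart, so a higher marker may be more cells or more RNA per cell. The macrophage and monocyte list had 4 of 14 members higher (Ccr2, Cd68, Cd14 and Adgre1) and made up 0.0150% to 0.0452% of the total in the low class, 0.0327% to 0.151% in the high class and 0.0190% to 0.0400% in controls. Its count was 8 without sample 1 and 11 without sample 2, where 4.77% and 5.17% of all genes counted. Of the microglia list 4 of 12 members counted as higher (Cx3cr1, Gpr34, Olfml3 and Fcrls), with a share of 0.0115% to 0.0156% in the low class and 0.0164% to 0.0419% in the high class. This count was 7 without sample 1 and 9 without sample 2. Cx3cr1, the fractalkine receptor of microglia, read 427.9, 338.5 and 273.9 against 455 to 1569, and each DBA/2J library lay above the highest control of 224. In the neutrophil list 3 of 11 members that passed the filter on low values were higher, 1 of them (Mmp8) having passed through the high class alone, and 2 with a minimum of 10 in 6 libraries. S100a9, a calcium-binding protein abundant in neutrophils, read 23.7, 45.3 and 8.71 in the low class and 49.1 to 1174 in the high class. Its lowest high-class value, in sample 2, was close to sample 3, and a control reached 250. Mmp8, the neutrophil collagenase, was at 0 in all 3 low-Lcn2 libraries and at 3.99 to 45.3 in the high class, but up to 47.3 in controls. Ly6g, a defining marker of neutrophils, averaged 0.353 in the low and 1.51 in the high class, near 0 in both. Ptprc, the leukocyte common antigen CD45, read 55.8, 98.4 and 108.0 against 161 to 684. The part of these cells in the acute-phase and complement differences was not tested. With the macrophage mean as a covariate, 277 of the 735 genes were counted again. Under that covariate 1420 genes (4.74%) counted as higher in all, with 11 of 23 acute-phase, 6 of 18 complement and 2 of 22 adhesion members, the last near the share of all genes.

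Interferon-response genes gave 7 of 24 members higher with a median of 1.00. The count was 13 without sample 1, 11 without sample 2 and 4 without sample 3, against 4.77%, 5.17% and 3.34% of all genes. A minimum of 10 in 6 libraries left 6. With library number, the pan-endothelial mean or the red cell mean as a covariate it was 2, against 3.21%, 3.4% and 3.25% of all genes. It was 1 with the macrophage mean, against 4.74%, and 8 with log2 depth, against 4.07%. Zbp1, a sensor of nucleic acids that interferon induces, read 107.3, 48.2 and 63.8 against 130 to 754, and the controls, at 110 to 181, overlapped the high class only. Ifitm3, a membrane protein that restricts virus entry, read 2953, 2176 and 2118 against 4791 to 12425. For Ifitm3 the low-Lcn2 libraries lay below the control range of 3020 to 7130, so that the high class overlapped the controls. Irf1, Irf9 and Ifit3 differed by 1.13 ± 0.31, 1.02 ± 0.21 and 1.11 ± 0.20. Antigen presentation counted fewer members, Tap2 and Nlrc5 of 12 in class I and H2-DMb1 of 8 in class II, with medians of 0.92 and 1.67. Sample 2 exceeded the low-Lcn2 libraries for 3 of 12 class I members, which is near its share of 25.2% over all genes. Samples 6 to 9 exceeded them for all 12 and sample 5 for 11, against 29.4% to 35.2% of all genes. Without sample 2, 10 of 12 class I and 6 of 8 class II members counted as higher, against 5.17% of all genes.

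Genes of endothelial identity did not separate the classes as a whole, and this rested on sample 2. Of the 18 pan-endothelial markers, 0 counted as higher and 0 as lower, although all 18 differences were positive and their median was 0.98 (log2). Cldn5, the tight-junction claudin of barrier endothelium, read 5021, 2500 and 4254 in the low class and 3247 to 18948 in the high class (1.09 ± 0.49). Pecam1, the junctional protein CD31, read 2098, 1599 and 2782 against 1867 to 6671 (0.96 ± 0.37). Kdr, the main receptor for VEGF, read 4997, 3710 and 7034 against 3609 to 8618 (0.20 ± 0.32). In each of these 3 genes the lowest value of the high class was in sample 2. Sample 2 exceeded the low class for 0 of the 18 markers and lay below all 3 low-Lcn2 libraries for 8, whereas samples 5 to 9 exceeded it for 14 to 18. Without sample 2, 13 of the 18 markers counted as higher, and 7 of 12 pericyte markers, against 5.17% of all genes. The pan-endothelial share was 0.142% in sample 2, against 0.121% to 0.176% in the low class and 0.191% to 0.459% in the other high-Lcn2 libraries. The share of endothelial RNA thus moved with the class in 5 of the 6 libraries and its part in the adhesion differences was not tested. Sample 2 lay above the low class in 17 of 23 acute-phase, 14 of 18 complement and 11 of 22 adhesion members, against 25.2% of all genes. After adjustment for the mean of the pan-endothelial markers, 11 of 23 acute-phase, 11 of 18 complement and 5 of 22 adhesion members counted as higher, against 3.4% of all genes. Other lists kept fewer under that adjustment, with 2 of 27 interleukin 1, TNF and NF-kB, 2 of 24 interferon-response and 1 of 12 microglia members.

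Among venous markers 5 of 14 members besides Lcn2 counted as higher (11 without sample 2), among them Selp and Lrg1. Slc38a5, a glutamine transporter of retinal and brain endothelium, read 1346, 799.9 and 574.1 against 1576 to 6115 (2.06 ± 0.50), the only member of 19 barrier transporters counted. Aplnr, the apelin receptor of veins, read 3.83, 5.89 and 20.5 against 24.8 to 131. Nr2f2, the transcription factor that specifies venous identity, overlapped, with 453.8, 352.4 and 198.1 against 309 to 807. The transporter Mfsd2a, which limits transcytosis at the barrier, overlapped as well, at 263.8, 103.5 and 164.0 against 130 to 506. Plvap, which marks fenestrated endothelium and is low at an intact barrier, read 487.6, 473.5 and 434.4 against 497 to 1378, with controls at 668 to 1154. Its classes were apart, but the difference of 0.69 ± 0.21 stayed under the 2-fold limit. No member of the junction list (of 19), the Wnt and Norrin list (of 18), the pericyte list (of 12) or the smooth muscle list (of 12) was counted in either direction. Without sample 2, 5 junction, 4 Wnt and Norrin and 1 smooth muscle members counted as higher, against 5.17% of all genes, so the smooth muscle count stayed near the background.

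Matrix and vessel-wall genes differed in a few members, 3 of 15 matrix proteases and inhibitors and 2 of 20 basement membrane and matrix genes. The latter count was 13 without sample 2, against 5.17% of all genes. Mmp3, stromelysin, read 55.2, 43.6 and 15.5 against 141 to 1149 (2.95 ± 0.72), with sample 2 highest. Adamts4, an aggrecan-cleaving protease, differed by 2.16 ± 0.53. Col1a2, a chain of fibrillar collagen I, read 297.7, 241.9 and 250.8 against 653 to 2213. Sample 5 stood apart within the high class. It read 34113 for Col18a1, which encodes the basement-membrane collagen that yields endostatin, against 2867 to 7358 in the other high-Lcn2 libraries. It also read 7618 for F5, coagulation factor V, and 13305 for Gja1, the gap-junction protein connexin 43, for which sample 9 came next at 1696. For Gja1 the classes overlapped through sample 7, at 568.3 against 538.9 to 583.3 in the low class.

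Several genes outside the lists were among the 16 largest differences. The keratin genes Krt17 and Krt14, which encode filaments of basal epithelium, read 44.5 to 340 and 124 to 382 in the high class, against 31.3, 0.81 and 17.2 and 72.3, 30.1 and 15.7 in the low class. Controls reached 106 for Krt17 and 224 for Krt14, so both genes overlapped between control and high-Lcn2 veins. Scgb3a1, a secretory protein of epithelia, read 46.3, 32.4 and 22 against 61.6 to 1123. Fgr, a Src-family kinase of myeloid cells, Ctsw, a cysteine protease of cytotoxic lymphocytes, and Dusp2, a phosphatase of activated immune cells, differed by 2.71 ± 0.93, 2.57 ± 0.37 and 2.84 ± 0.46. Agr2, a disulfide isomerase of mucus-secreting cells, differed by 2.71 ± 0.56, although a control reached 217.

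Fewer genes were lower in the high-Lcn2 libraries, and 7 of them averaged 5 CPM or more and met the rule for naming. Kcnd2, a subunit of neuronal A-type potassium channels, read 325.7, 321.6 and 227.5 in the low class and 67.3 to 194 in the high class (-1.34 ± 0.28). Gjd2, the gap-junction protein connexin 36 of retinal neurons, read 1224, 1642 and 1210 against 406 to 784 (-1.10 ± 0.23). The low-Lcn2 values of Gjd2 lay above all controls, which ranged from 301 to 918, and the high-Lcn2 values lay within that range. Chrna5, a subunit of nicotinic acetylcholine receptors, and Pcdha1, a clustered protocadherin, both differed by -1.12, with standard errors of 0.22 and 0.39. Transcripts of the Pcdha cluster share their last exons, so the value of Pcdha1 is uncertain. Atad5, a factor that unloads the DNA replication clamp, and Gsc2, a homeobox gene, differed by -1.06 ± 0.29 and -1.10 ± 0.26. AL627257.1, for which no role is given here, differed by -1.10 ± 0.21. No member of the fixed lists of ganglion cell or of bipolar, amacrine and horizontal cell markers counted as lower, although most ganglion cell differences were negative, as given below.

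Photoreceptor markers all differed in the same direction. Of 15 rod and cone markers, 0 counted as higher or lower, but all 15 differences were negative, with a median of -0.70, and 5 of them (Cnga1, Opn1sw, Opn1mw, Nr2e3 and Gnat2) did not overlap between the classes, against 2.12% of all genes. Cnga1, the rod cyclic-nucleotide-gated channel, read 6381, 7447 and 8869 against 3048 to 5307 (-0.95 ± 0.19). The list made up 4.83% to 7.47% of the total in the low class, 2.76% to 4.85% in the high class and 2.27% to 4.82% in controls. The shares overlapped between the classes, since sample 7 of the high class, at 4.85%, lay above sample 1, at 4.83%. Sample 1 was also barely above the highest control, at 4.82%. By the mean log2 value of the list, sample 1, at 13.81, lay within the control range of 13.04 to 14.01, and samples 3 and 4, at 14.15 and 14.47, lay above it. Retinal ganglion cell markers had a median of -0.57, and 13 of 14 differences were negative or 0. Samples 6, 7, 8 and 9 lay below all 3 low-Lcn2 libraries for 7, 12, 9 and 11 of the 14, and samples 2 and 5 for 2 and 3. Over all 29959 genes, samples 6 to 9 did so for 6098 to 7749. The list's mean log2 value was 7.69 to 9.54 in the high class, 9.11 to 9.93 in the low class and 9.78 to 10.01 in controls. Pou4f1, a transcription factor of ganglion cells, read 472.5, 469.4 and 100.2 against 14.4 to 271 (-1.88 ± 1.04), so sample 4 fell within the high class. Red cell genes ran the other way, with 6 of 8 members higher, 5 with a minimum of 10 in 6 libraries and 4 after scaling by library totals. Of these, Slc4a1, an anion exchanger of red cells, passed the filter through the high class alone, with 0.08 to 0.40 in the low class. Hba-a1, an alpha globin, read 22594, 16758 and 10623 against 30286 to 202140, but controls spanned 26109 to 227547. The globin genes are near-identical copies, so reads may be split between them. How far the retinal neurons and blood in a dissected vein set the differences of other genes was not tested. With the rod and cone mean as a covariate, 394 of the 735 genes were counted again, and with the red cell mean 334.

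**Figure D4:**
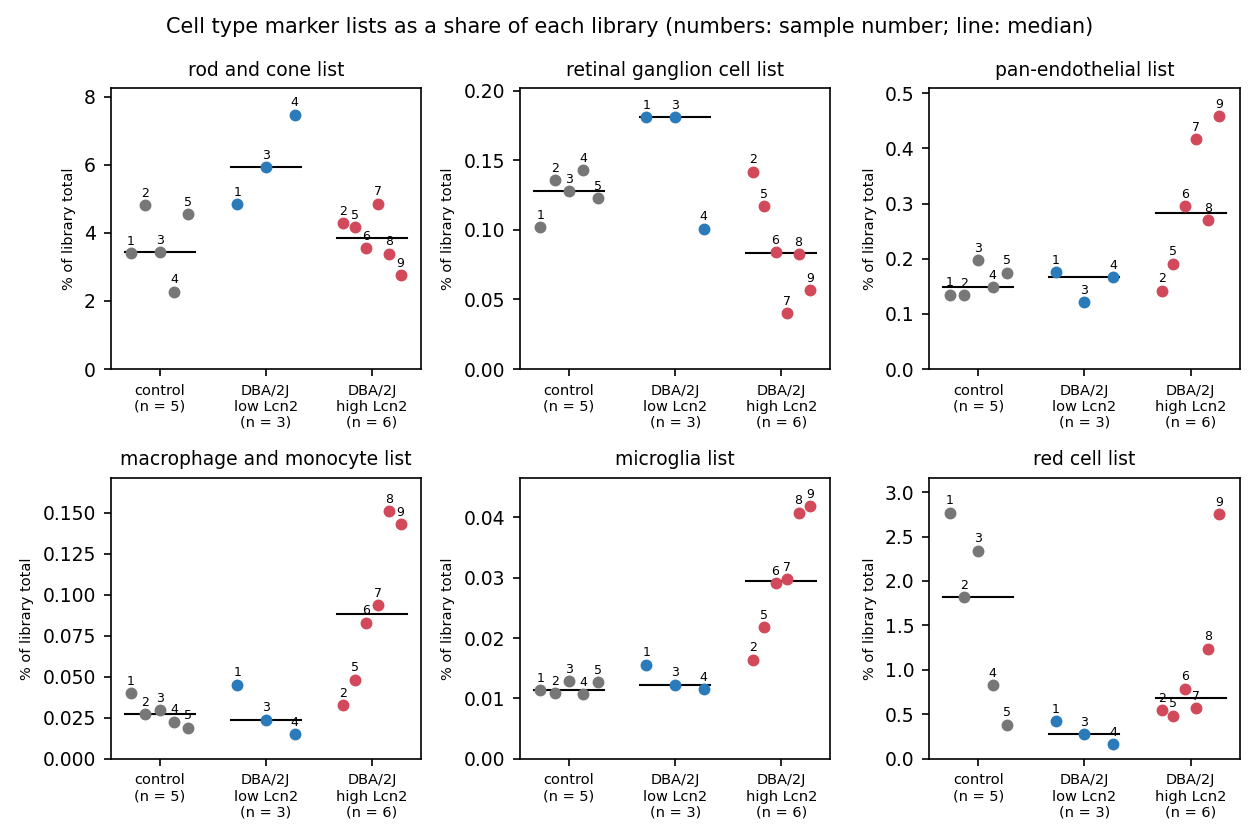
Share of each library's total (%) taken by 6 cell type marker lists, with the sample number beside the point and a line at each group's median. The low-Lcn2 libraries hold 4.83% to 7.47% rod and cone markers against 2.76% to 4.85% in the high-Lcn2 libraries, and red cell, macrophage and microglia shares are greatest in samples 8 and 9 of the DBA/2J libraries.

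The other lists had few or no members counted with all 9 libraries, but several counts were larger with 1 library left out. Without sample 2 the counts were 8 TGF-beta and BMP, 7 coagulation, 6 VEGF, 6 fibroblast and 4 flow-response members, against 5.17% of all genes. Without sample 3, 7 immediate early genes counted, against 3.34% of all genes, and without sample 4, 5 arterial markers, against 3.69%. Stress and metabolism gave Sdf2l1 of 14 ER stress genes, Mt2 and Gsta4 of 12 NRF2 and metallothionein genes, Myc of 22 immediate early genes, and none of 12 heat shock or 18 glycolysis and hypoxia genes. Mt2, a metallothionein that binds zinc and copper, read 947.4, 690.6 and 856.0 against 1147 to 3370, and the low class lay below the controls, at 1602 to 3154. Vessel growth and flow gave Pgf and Aplnr of 18 VEGF, angiopoietin and Tie genes, Tgfbr3 and Bmp4 of 21 TGF-beta and BMP genes, Cyp1b1 of 18 flow-response genes, F5 of 15 coagulation genes and Cavin3 of 13 caveolar genes. Pgf, which encodes placental growth factor, a VEGF relative, read 112.1, 67.0 and 72.3 against 167 to 326. Cell type lists gave Col1a2 and Apod of 12 fibroblast markers, Lck, Nkg7 and Ptprc of 14 lymphocyte markers, Mgp of 15 arterial markers and Gfap of 10 astrocyte markers. None of 14 Müller glia, 15 bipolar, amacrine and horizontal cell, 12 pigment epithelium and 12 glial endfoot genes counted, nor any of 14 lens genes. The cell cycle and apoptosis lists each had 1 of 14 members counted, Top2a and Bcl2a1b. Crybb2, a lens crystallin, ranged from 9.46 in sample 7 to 54932 in sample 6 within the high class and from 156.1 to 38906 in the low class, against 335851 to 947594 in controls, so lens RNA differed between mice without following the classes.

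Across the 9 libraries the genes whose values on the log2(value + 1) scale followed Lcn2 most closely were, by Pearson r as a measure of likeness, Bcl3 (0.992), Il18bp (0.970), Cfb (0.967), Lrg1 (0.965), Chil1 (0.965), Scgb3a1 (0.963), Ctsw (0.962), Cebpd (0.961) and Jak3 (0.961). In all, 75 of 13347 genes averaging 5 CPM or more (share of a library's total) had an r of 0.9 or more. The points share library depth and cell content, they fall into the 2 classes the rule made, and no p is given. Il18bp, which encodes the secreted antagonist of interleukin 18, read 87.0, 59.7 and 91.2 against 174 to 394. Jak3, a kinase of cytokine receptors, read 624.8, 564.5 and 675.9 against 1032 to 2378.

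Library number and depth did not differ between the classes beyond the 0.05 threshold. Library numbers, which the labels give, were 31, 33 and 34 in the low class and 32 and 35 to 39 in the high class, so that sample 2 was the only high-Lcn2 library among the first 4. The means were 36.2 and 32.7, a difference of 3.5 (two-sided exact permutation test over 84 assignments, p = 0.0952, adjusted over 2 tests p = 0.119, smallest p possible 0.0238). Without sample 2 the difference was 4.33 and the exact permutation p was 0.0357, not adjusted. Leaving out sample 2 makes the order of the classes complete, so this p is the smallest the remaining libraries allow. With any other library left out the exact permutation p was 0.107 to 0.286. Estimated depth was 8931959, 21407305 and 10534194 reads in samples 1, 3 and 4, and 14345286 to 33786257 reads in the high class. The difference of the mean log2 depth was 0.764 (exact permutation p = 0.119, adjusted p = 0.119), and by the total of the deposited values it was 0.0348 (exact p = 0.69). Samples 1 and 4 were the shallowest DBA/2J libraries and sample 3 was among the deeper ones. With log2 depth as a covariate 604 of the 735 genes were counted again, and with library number 381. Libraries in the low class were mostly earlier in the numbering, so library number and class cannot be told apart.

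Transcript length moved with the classes as well. Among protein-coding genes split into 5 bins of about equal size by transcript length, the share counted as higher was 4.67% in the shortest bin (69 to 1829 bases), 4.37%, 3.15% and 2.30% in the next 3 and 1.94% in the longest (5130 to 123179 bases). The median difference went from 0.233 to -0.047 (log2) over the same bins. The slope of a library's log2 values on log2 length was 0.049, 0.038 and 0.188 in samples 1, 3 and 4, and -0.195 and -0.169 in samples 8 and 9, with -0.016 to 0.055 in the other high-Lcn2 libraries. With a trend on length and GC content removed from each library, 753 genes counted as higher, 607 of them among the 735. With the slope as a covariate, 838 genes (2.8%) counted as higher, 454 of them among the 735. That setting kept 12 of 23 acute-phase and 10 of 18 complement members. It kept 4 of 22 adhesion and 4 of 27 interleukin 1, TNF and NF-kB members. The part of length in any 1 gene's difference was not tested. Long noncoding genes showed a different balance, with 1.64% of 2383 lincRNA genes higher and 1.22% lower.

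**Figure D5:**
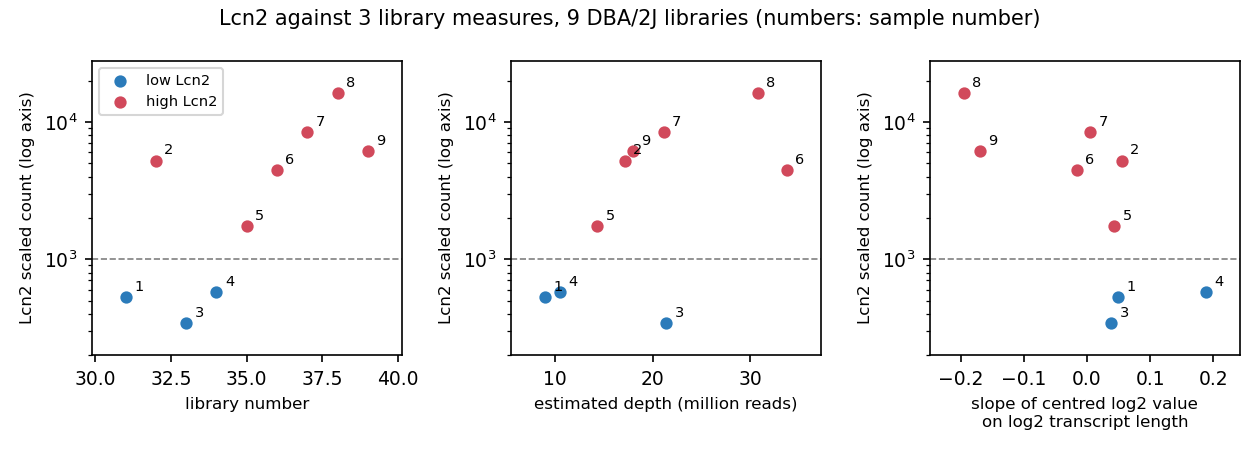
Lcn2 scaled count (log axis) in the 9 DBA/2J libraries against library number, estimated depth, and the slope of log2 values on log2 transcript length, with the dashed line at 1000, which divides the classes. The low-Lcn2 libraries have numbers 31, 33 and 34, and samples 8 and 9 have the lowest slopes, -0.195 and -0.169.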

How the data were processed

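Veins of 9 DBA/2J and 5 control mice were profiled by bulk RNA-seq from about 100 pg of RNA with SMART-Seq v4 and Nextera XT, per the labels' protocols. The deposited values are a signal per gene symbol, which from its values is kallisto's estimated count after division by some factor for each library, of unstated origin. The design text names GRCm38 and GENCODE M23, and the submitters' processing notes list GRCm39, kallisto and sleuth, so the build is not settled.

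Of 40149 rows, 26 with symbols turned into dates (at most 0.201% of a library) were left out, and 39019 of 40123 symbols matched GENCODE M21 (GRCm38), the source of coordinates and transcript lengths. Genes at 1 or more in at least 3 DBA/2J libraries were compared on log2(value + 1), as class means with the SE of their difference, in Python 3.11.15 with pandas 2.3.3 and scipy 1.17.1. A fold on this scale understates changes of low genes. Lcn2 was left out of all lists. Depth was estimated as a library's total divided by its most frequent nonzero low value, taken as the value of a single read. Intervals of single values were not computed. No count model and no test between classes was run, since the classes rest on a measured value; only library number and depth were tested, by exact permutation. The comparison was also run on simulated data with a fixed spread and with changes set only in well-expressed genes. That run does not cover low genes or genes of wide spread.

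Named genes were Lcn2; the 16 largest differences upward and up to 10 downward (7 found) averaging 5 CPM or more; up to 4 counted members of each of 45 lists, or up to 2 not counted; the 10 genes most like Lcn2; and a fixed set. The list members C1qa, C1qb, C1qc, Serping1, Relb, Nfkb2, Irf1, Irf9, Ifit3 and Ly6g are named besides and were chosen after their values were seen. The members and lists were chosen with earlier results of these data known. Each sample combines the veins of 1 mouse, per the design text.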

Additional observations from a re-analysis of the deposited data

Results flagged for a closer look

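Of 66 groups of values examined for a sample far from the others, 1 stood out, where chance gives about 1 in 20. Stat3 read 450 in control sample 1, and the gap to the next control was 0.919 of the whole range of the 5 controls. That value still lay below the lowest DBA/2J library, 682.0 in sample 3.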

How the results depend on the processing

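No paired analysis was possible because both classes lie within the same labelled group and share no replicate numbers. The main counts were 735 higher and 195 lower. With a pseudocount of 5, 62 were lower. A minimum of 10 in 6 libraries gave 569 higher and 55 lower, and no filter on low values gave 735 and 203. Quantile normalization gave 553 higher and 298 lower, which moves the split. No minimum difference gave 1222 and 635, and a minimum of 2 gave 191 and 23. Among covariates, library number gave 425 lower, log2 depth 1220 higher and 344 lower, the pan-endothelial mean 395 lower and the macrophage mean 1420 and 982. Alternatives chosen after seeing the data were the rod and cone mean (1661 and 1259), the red cell mean (539 lower), the length slope (395 lower), and leaving out samples 1 and 4 (2511 and 1347) or samples 8 and 9 (777 and 279). Leaving out each library in turn gave 706 to 1549 higher and 223 to 578 lower. The highest count came without sample 2 (1549, 731 shared), then without sample 1 (1428) and sample 4 (1105), and the lowest without sample 9 (706); the cause was not tested. The library number difference ranged from 2.67 to 4.33. Its exact permutation p was 0.0357 without sample 2, the smallest the remaining libraries allow and not adjusted. The depth difference ranged from 0.514 to 1.14, and by the total of the deposited values it was 0.0348 (exact permutation p = 0.69). Of 3719 values of 133 named genes over 28 settings, 3378 moved by less than 1 SD and 332 by more. Settings that change only the filter on low values or the minimum difference cannot move a gene's difference, so their values are among the 3378 by design. With the macrophage mean as a covariate, 30 values moved by less than 1 SD and 96 by more. Changes of sign were looked for only in genes counted as higher or lower, and 9 such values changed sign. These were, with the macrophage mean, Atad5 0.11, Cd14 -0.19, Mgp -0.15, Apod -0.20, Cx3cr1 -0.14, Hba-a2 -0.05 and Hbb-bs -0.10, with the rod and cone mean Hbb-bs -0.18, and with the red cell mean Lck -0.05; the cause was not tested. With 3 low-Lcn2 libraries, 2 of them shallow, low genes such as Selp limit precision most.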
